A study of Mus musculus with 7 samples.

Results

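The subcortical maternal complex is a protein assembly beneath the plasma membrane of the mammalian oocyte, and 6 genes that encode its subunits were followed here: Nlrp5, Ooep, Tle6, Khdc3, Padi6 and Zbed3. They were chosen by name, and each is listed once among the 25912 entries of the expression tables. Transcript levels had been measured by Smart-seq2, a full-length RNA-seq method that starts from oligo-dT primers and so follows polyadenylated RNA, in 7 libraries of 10 mouse oocytes each. The study collected oocytes from C57BL/6 mice 4 weeks old, 44 h after 5 IU of PMSG, a hormone that makes follicles grow. The groups were germinal vesicle (GV) oocytes, which are arrested before meiosis resumes (2 libraries), metaphase II (MII) oocytes cultured with the solvent DMSO (3 libraries) and MII oocytes cultured with BYBX, a ligand that binds RNA G-quadruplexes or rG4s, the 4-stranded folds of G-rich RNA (2 libraries). The labels list no treatment for the GV group. The methods state that control oocytes of both stages, GV and MII, received DMSO, and describe collection for RNA-seq after DMSO or BYBX. Neither source names the BYBX dose of these libraries. A legend gives 1 μM for the oocytes whose ribosome-bound mRNA was set beside them. The MII stage stands for 16 h of culture, and no selection of the sequenced oocytes by polar body is described, so the oocytes labelled MII with BYBX need not all have completed the first division.

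Subunits of the complex are stored in the growing oocyte and are needed after fertilization: embryos of females that lack one of several of these genes arrest at the first cleavages. Oocytes stop transcribing before meiosis resumes, and many stored mRNAs are then deadenylated and degraded between GV and MII, while others are kept or given longer poly(A) tails. Cytoplasmic polyadenylation elements (CPEs), U-rich letters close to the polyadenylation signal of the 3′ UTR, are known to direct part of this choice.

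Nlrp5 (also called Mater) encodes a large NLR-family scaffold of the complex, on chromosome 7 at 23385889 to 23441922 (plus strand, GRCm38, the assembly that UCSC calls mm10). Ooep (Floped) and Khdc3 (Filia) encode small proteins with a KH-type fold and lie on chromosome 9, at 78376109 to 78378725 (minus strand) and at 73101836 to 73104438 (plus strand). Tle6, a relative of the Groucho co-repressors, lies on chromosome 10 at 81590904 to 81601073 (minus strand). Padi6, a member of the peptidylarginine deiminase family that is needed for the cytoplasmic lattices of the oocyte, lies on chromosome 4 at 140727355 to 140742643 (minus strand). Zbed3, a zinc finger BED-type protein found in the complex, lies on chromosome 13 at 95323612 to 95337841 (plus strand). The longest protein-coding transcripts in GENCODE were 1681 bases (Khdc3) to 3508 bases (Nlrp5) long, and their 3′ UTRs ran from 112 bases (Nlrp5) to 1449 bases (Ooep), with 1088 bases for Zbed3. An exon of Khdc3 overlaps Gm20509, a protein-coding gene on the same strand, so reads there cannot be assigned to one of them with certainty.

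The last bases of the transcripts are shown because they separate Zbed3 from the other 5 genes, in letters that were searched after the levels were known. Each stretch of 30 bases is in the sense of the mRNA, from GRCm38 at the end of the longest GENCODE transcript, with the polyadenylation signal (AATAAA) and any CPE (TTTTAT or TTTTAAT, which can overlap the signal) in capitals.
Zbed3, chr13:95337809-95337838, plus strand: ttttttttTTTTAATAAAcTTTTATttatc
Padi6, chr4:140727361-140727390, minus strand: tgccatagagccAATAAAgcatggtattct
Tle6, chr10:81590907-81590936, minus strand: cgagttgcgtgtAATAAAacaattgaaatg
Nlrp5, chr7:23441887-23441916, plus strand: tagcaagaatgaAATAAAcacagcatttag
Khdc3, chr9:73104409-73104438, plus strand: ttaaagtattctAATAAAaaaaaaattgca
The Zbed3 stretch holds 2 CPEs, one that runs into the signal and one just after it, and its whole 3′ UTR holds 5. The 3′ UTRs of the other 5 genes hold 0 in their longest GENCODE transcripts. RefSeq ends Khdc3 further on, at 73106631, and the bases past the GENCODE end were not searched. Ooep has neither AATAAA nor ATTAAA in the last 40 bases before its annotated end, in GENCODE or in RefSeq, and no stretch is shown for it. Of the 8866 tested genes matched to a transcript, 20.1% had a CPE in the last 100 bases, 3.24% had at least 2 there, and 77.6% had a signal in the last 40 bases, against 1, 1 and 5 of the 6 genes.

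A predicted rG4 motif, 4 runs of at least 3 G with spacers of 1 to 7 bases (written G3N1-7), was found on the sense strand of 1 of the 6 transcripts, against 18.7% of the 8866 matched genes. It lies in the annotated 5′ UTR of Ooep and is shown, with the G runs in capitals, because the ligand under study binds such folds.
Ooep, chr9:78378590-78378608, minus strand: GGGGcGGGGtcGGGctGGG
The motif ends 2 bases before the gene start that RefSeq gives, so it is in the mRNA only under the GENCODE model. With spacers of up to 12 bases Padi6 also had a motif, in its 3′ UTR (2 of 6 genes, against 33.3%), and with runs of 2 G all 6 had one (against 97.2%). A match says that these letters are present, not that the RNA folds.

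In GV oocytes the 6 transcripts were among the most abundant, and Zbed3 stood at places 3 and 7 of all entries in the 2 libraries. Levels are given as FPKM, fragments per length of transcript and per number of mapped reads, so genes can be compared, and the authors scaled them between libraries by an added RNA spike-in. The order of the GV means was Zbed3, Tle6, Padi6, Ooep, Khdc3 and Nlrp5, from 3293 ± 1488 to 353 ± 149 FPKM (SD, n = 2). Among neighbours in this order, only Ooep and Khdc3, and Khdc3 and Nlrp5, had libraries that did not overlap. The order in both MII groups was Zbed3, Padi6, Tle6, Ooep, Khdc3 and Nlrp5. In MII oocytes with DMSO the first 3 neighbouring pairs did not overlap, and with BYBX the pairs Zbed3 and Padi6, and Khdc3 and Nlrp5, did not.

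**Figure D1:**
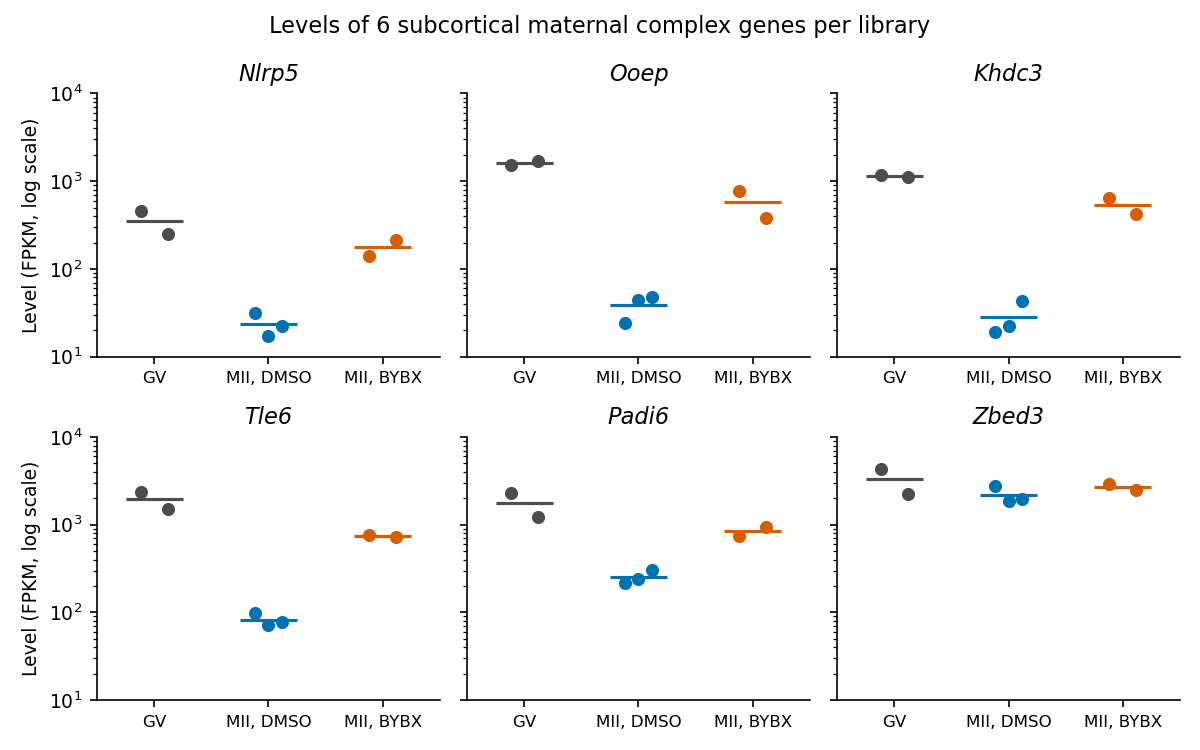
FPKM of each gene (log axis) in each library, by group; points are libraries and horizontal lines are group means (n = 2, 3 and 2). For Nlrp5, Ooep, Khdc3, Tle6 and Padi6 the 3 MII libraries with DMSO sit below every other library, while the Zbed3 libraries of the 3 groups overlap. The share of all entries that separate so was not counted.

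The first comparison was that of MII oocytes with DMSO and GV oocytes, the course of normal maturation. Nlrp5, Ooep, Khdc3, Tle6 and Padi6 fell between these stages, and Zbed3 was not called changed. Khdc3 and Ooep fell the furthest of the 6, to 2.45% and 2.41% of their GV means, and Padi6 kept 14.5% of its own. Fold changes are differences in log2(FPKM + 1), which understate the change of low genes, with adjusted p-values from limma over all 9202 entries tested. Nothing in the labels says that libraries of a group came from separate animals or cultures, so these p-values measure the spread between libraries, which may be technical.

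Nlrp5, the scaffold, was at 459 and 248 FPKM in the GV libraries, at 31.3, 17.2 and 22.5 FPKM in MII oocytes cultured with DMSO, and at 141 and 211 FPKM with BYBX. The 3 groups did not overlap, with the BYBX libraries between the others. The library totals lay in the same order without overlap, and the share of all tested entries that separate so was not counted. From GV to MII with DMSO it changed by -3.82 on the log2 scale (SE 0.33, adjusted p = 9.8e-08). In libraries of 10 oocytes, fewer oocytes with a transcript and less of it in each oocyte cannot be told apart.

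Ooep was at 1537 and 1684 FPKM in GV oocytes, at 24.4, 43.8 and 48.4 FPKM in MII oocytes with DMSO, and at 764 and 385 FPKM with BYBX. Khdc3, its partner with a KH-type fold, was at 1190 and 1115 FPKM in GV oocytes, at 18.9, 22.4 and 43.3 FPKM with DMSO, and at 649 and 426 FPKM with BYBX. Both genes had 3 separate groups of libraries, as the library totals did. Both changed by -5.39 from GV to MII with DMSO (SE 0.34 and adjusted p = 4.1e-09 for Ooep, SE 0.33 and adjusted p = 3.2e-09 for Khdc3). Over the 7 libraries the profiles of these genes were the closest pair among the 6, with a root mean square difference of 0.34 in log2(FPKM + 1) after each gene was set to its GV mean.

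Tle6 was at 2356 and 1529 FPKM in GV oocytes, at 98.2, 71.5 and 76.8 FPKM in MII oocytes with DMSO, and at 763 and 724 FPKM with BYBX. Its change from GV to MII with DMSO was -4.53 (SE 0.26, adjusted p = 1.8e-09). The BYBX libraries lay close together, between the other 2 groups. Padi6 was at 2275 and 1235 FPKM in GV oocytes, at 215, 240 and 309 FPKM with DMSO, and at 743 and 943 FPKM with BYBX. It fell the least of the 5 called genes, with a change of -2.73 (SE 0.29, adjusted p = 6.7e-07). The groups of Padi6 did not overlap either, and neither did the library totals.

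Zbed3 was at 4345 and 2241 FPKM in GV oocytes, at 2779, 1842 and 1981 FPKM in MII oocytes with DMSO, and at 2914 and 2479 FPKM with BYBX. The libraries of the 3 groups overlapped. The change from GV to MII with DMSO was -0.53 (SE 0.28, 95% confidence interval -1.14 to 0.08, adjusted p = 0.093), and Zbed3 kept 66.8% of its GV mean. This value rests on single libraries and on the scale. Without the first GV library the change was -0.05 (adjusted p = 0.88). Zbed3 was called lower without the second GV library (-1.0, adjusted p = 0.015) and without the first DMSO library (-0.71, adjusted p = 0.020). With each library scaled to the same total FPKM the change was 1.36 (adjusted p = 0.0012), called higher.

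Thus 5 of the 6 genes were called lower and 0 higher in MII oocytes with DMSO, and 88.3% of the 9202 tested entries were called lower and 0.272% higher. A call of a lower level was therefore the rule in this comparison, and the size of the change carries more than the call. With no filter on level 12025 of 18497 entries were called lower. The median change was -4.17 over the 6 genes and -1.83 over all tested entries. Ooep, Khdc3 and Tle6 lay at the 2.29th, 2.31st and 6.50th percentile of all changes, with the largest falls at the low end, Nlrp5 at the 12.6th, Padi6 at the 28.3rd and Zbed3 at the 89.5th. Relative to the median of all entries, Ooep and Khdc3 changed by -3.56, Tle6 by -2.69, Nlrp5 by -1.98, Padi6 by -0.90 and Zbed3 by 1.31. These differences depend on the 1 added to each FPKM, which holds back the change of low entries. With 0.1 added instead, the median of all entries was -2.53, with Padi6 at -2.74, Ooep at -5.43 and Zbed3 at -0.53. The percentiles were not recomputed.

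The scale between libraries decides how far all entries fell. The summed FPKM of a library was 402113 and 489569 in GV oocytes, 109732 to 127254 in MII oocytes with DMSO, and 201482 and 246710 with BYBX. These totals did not overlap between the 3 groups either. The separate groups of libraries seen for single genes above have no share over all entries beside them, as it was not counted. Scaled to the same total, the median change of all entries from GV to MII with DMSO was -0.56 in place of -1.83, with 4557 entries lower and 2141 higher in place of 8127 and 25, and after centring each library on its median it was 0.47, with 2456 lower and 4494 higher. Nlrp5, Ooep, Khdc3 and Tle6 were called lower under all 3 scales, with changes of -1.51 to -3.09 after median centring. Padi6 was called lower at the same total (-0.85) but not after median centring (-0.43, adjusted p = 0.12), and Zbed3 was called higher under both (1.36 and 1.78).

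**Figure D2:**
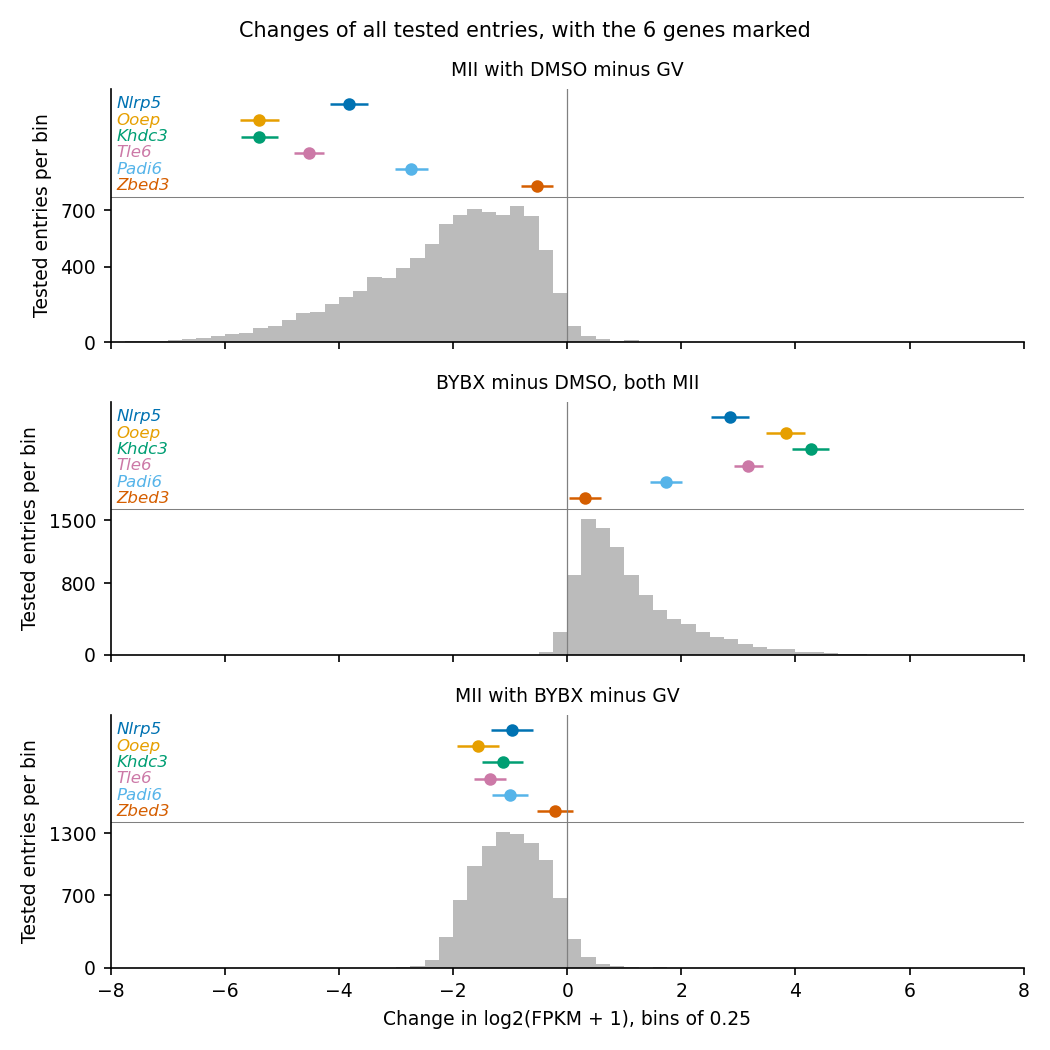
Histograms of the change in log2(FPKM + 1) over the 9202 tested entries (bins of 0.25), with the change of each of the 6 genes above them (points, bars give the standard error). In the upper panel Ooep, Khdc3 and Tle6 lie in the low tail of all entries and Zbed3 in the upper part, in the middle panel Khdc3 and Ooep lie in the high tail, and in the lower panel the 6 genes lie within the bulk.

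The second comparison set oocytes labelled MII with BYBX against those with DMSO. Oocytes with BYBX need not all have completed the first division, so the ligand and the stage reached cannot be told apart. Nlrp5, Ooep, Khdc3, Tle6 and Padi6 were higher with BYBX, and Zbed3 was not called changed. The mean with BYBX was 19.1-fold that with DMSO for Khdc3, 14.8-fold for Ooep, 9.05-fold for Tle6, 7.44-fold for Nlrp5, 3.31-fold for Padi6 and 1.23-fold for Zbed3. The limma changes were 4.26 for Khdc3 (SE 0.33, adjusted p = 2.0e-07), 3.83 for Ooep (SE 0.34, adjusted p = 5.8e-07), 3.18 for Tle6 (SE 0.26, adjusted p = 2.9e-07), 2.85 for Nlrp5 (SE 0.33, adjusted p = 6.6e-06) and 1.73 for Padi6 (SE 0.29, adjusted p = 1.5e-04). For each of these genes both BYBX libraries lay above all 3 DMSO libraries. So did the library totals, and how many of all tested entries separate in this way was not counted. For Zbed3 the libraries overlapped, and the change was 0.31 (SE 0.28, 95% confidence interval -0.30 to 0.92, adjusted p = 0.34).

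In this comparison 5 of the 6 genes were called higher and 0 lower, against 65.2% and 0.0326% of the tested entries. The median change was 3.01 over the 6 genes and 0.84 over all entries. With 0.1 added to each FPKM in place of 1, the median of all entries was 1.29, with Padi6 at 1.73 and Khdc3 at 4.31. Khdc3, Ooep, Tle6 and Nlrp5 stood at the 99.1st, 98.3rd, 96.1st and 94.1st percentile of all changes, Padi6 at the 79.7th and Zbed3 at the 16.3rd. These percentiles rest on the added 1, which holds back the change of low entries, and were not recomputed with 0.1. The same 3 DMSO libraries stand in this comparison and in the one before, so a low value there moves both, and the agreement of their orders is not a separate result. At the same total FPKM the 5 genes stayed called higher, with changes of 0.84 (Padi6) to 3.40 (Khdc3), while 3672 entries were higher and 756 lower in place of 6000 and 3 and the median was 0.34. After median centring, with 1696 higher and 4040 lower and a median of -0.44, Padi6 was no longer called (0.45, adjusted p = 0.12) and Zbed3 was called lower (-0.97, adjusted p = 0.0086).

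**Figure D3:**
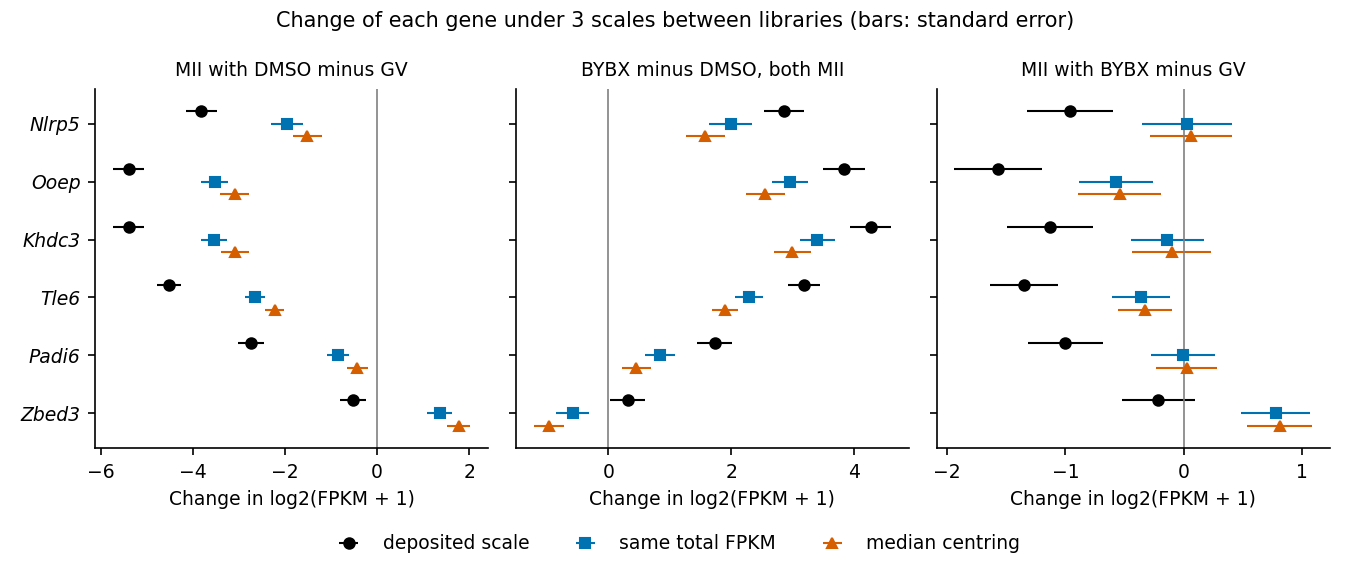
Change of each gene in log2(FPKM + 1) for the 3 comparisons (points, bars give the standard error) on the deposited scale, with every library set to 1 common total FPKM, and centred on its median. From GV to MII with DMSO the 2 other scales carry Zbed3 from -0.53 to 1.36 and 1.78, and Ooep and Khdc3 stay below -3 on each.

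The third comparison set MII oocytes with BYBX against GV oocytes. Levels with BYBX were 35.7% of the GV mean for Ooep, 38.3% for Tle6, 46.7% for Khdc3, 48.0% for Padi6, 49.9% for Nlrp5 and 81.9% for Zbed3. The first 5 genes were called lower than in GV, with changes of -1.57 for Ooep (SE 0.37, adjusted p = 0.0022), -1.35 for Tle6 (SE 0.29, adjusted p = 0.0010), -1.13 for Khdc3 (SE 0.36, adjusted p = 0.014), -1.0 for Padi6 (SE 0.31, adjusted p = 0.012) and -0.96 for Nlrp5 (SE 0.36, adjusted p = 0.031). Each of the 5 had both BYBX libraries below both GV libraries. The library totals lay in the same order, and the share of all tested entries that separate so was not counted. Zbed3 overlapped, with a change of -0.22 (SE 0.31, 95% confidence interval -0.88 to 0.45, adjusted p = 0.54).

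Here 5 of the 6 genes were called lower and 0 higher, against 69.2% and 0.315% of the tested entries, and the median change of the 6 genes, -1.07, was near that of all entries, -0.99. Only Ooep and Tle6 were still called lower without the first GV library, and only Ooep, Tle6 and Khdc3 without the first BYBX library. Khdc3 was not called without the second GV library (-1.18, SE 0.51, adjusted p = 0.071) or without the second BYBX library (-0.83, SE 0.43, adjusted p = 0.11). At the same total FPKM 0 of the 6 genes were called in this comparison, with changes of -0.57 (Ooep) to 0.78 (Zbed3), while 1222 entries were lower and 488 higher with a median of -0.17. After median centring again 0 were called, while 1250 entries were lower and 1397 higher with a median of 0.04.

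The make-up of the 6 transcripts within a library does not depend on the scale between libraries. Zbed3 held 35.7% and 27.8% of the summed FPKM of the 6 genes in GV oocytes, 79.9% to 87.7% in MII oocytes with DMSO, and 48.8% and 48.0% with BYBX. The 6 genes together held a similar share of the library in each group, with 2.24% ± 0.34 in GV, 2.22% ± 0.58 in MII with DMSO and 2.49% ± 0.10 with BYBX (SD, n = 2, 3 and 2). Without Zbed3 the share was 1.52% ± 0.11 in GV, 0.355% ± 0.037 with DMSO and 1.29% ± 0.067 with BYBX. The level of Zbed3 was 2.78 and 1.93 times the mean of the other 5 genes in the GV libraries, 35.8, 23.3 and 19.8 times at MII with DMSO, and 4.76 and 4.61 times with BYBX, 3 ranges that did not overlap.

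**Figure D4:**
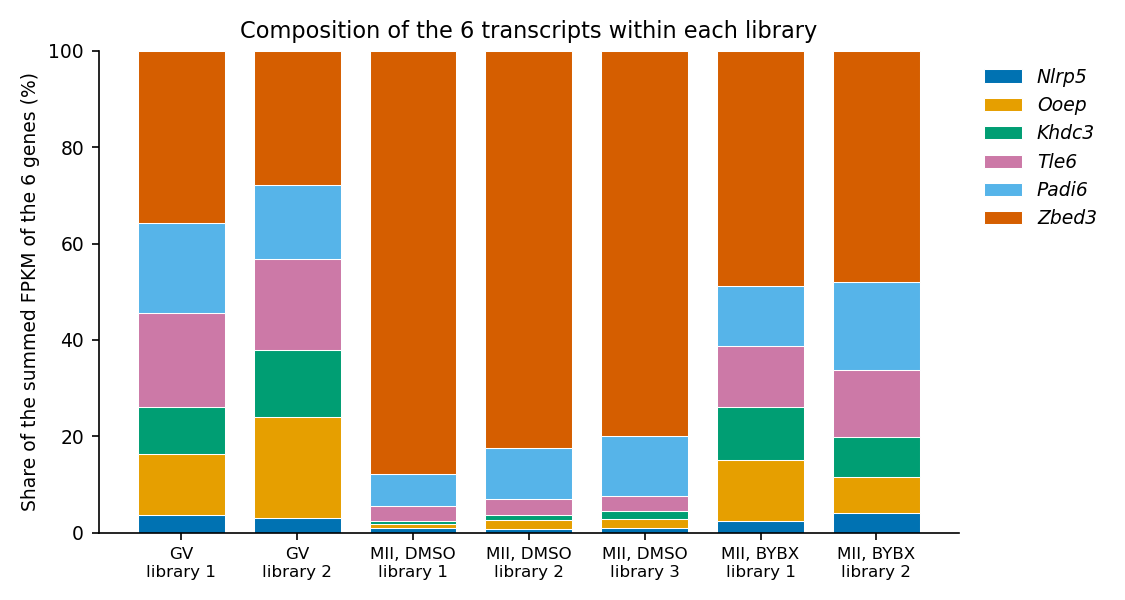
Share of each gene in the summed FPKM of the 6 genes (stacked bars, percent) in each library. Zbed3 takes 79.9% to 87.7% of the bar in the 3 DMSO libraries, and 27.8% to 48.8% in the other 4.

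Each gene was also set against the mean of the 6 log2 levels in its own library, and the groups were compared by a two-sided exact permutation test. That mean holds all 6 genes, so their ratios are tied, and a fall of some raises the ratios of others. Padi6, for example, fell in level from GV to MII with DMSO while its ratio rose. Its level was higher with BYBX than with DMSO while its ratio was lower. With 2 libraries against 3 this test cannot give a p under 0.1, and with 2 against 2 none under 0.333, so no difference could pass 0.05. From GV to MII with DMSO this log2 ratio moved by 3.20 for Zbed3, 1.0 for Padi6, -0.79 for Tle6 and -1.66 for both Ooep and Khdc3, each with no overlap (permutation p = 0.1, adjusted p = 0.2 over 18 tests), and by -0.09 for Nlrp5, whose libraries overlapped (permutation p = 0.8). From DMSO to BYBX at MII it moved by -2.38 for Zbed3, -0.96 for Padi6, 1.13 for Ooep and 1.57 for Khdc3 (permutation p = 0.1 each), by 0.48 for Tle6 (permutation p = 0.2) and by 0.16 for Nlrp5 (permutation p = 0.5). Between GV and BYBX the libraries were apart for Zbed3 (0.82) and Tle6 (-0.31), with permutation p = 0.333, and overlapped for the other 4 genes.

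The CPE, which Zbed3 has and the other 5 genes lack in the transcripts searched, was set beside the changes of all matched genes as a description. Genes with a CPE and a signal (1464) had a median change of -1.14 from GV to MII with DMSO, and 77.6% of them were called lower. Genes with a signal and no CPE (5414) had a median of -1.91, with 89.8% called lower. At MII the medians of BYBX against DMSO were 0.54 and 0.88, with 44.5% and 67.7% called higher. Zbed3, at -0.53 (SE 0.28), lay near the upper quartile of its class in the first comparison (-0.63). In the second, at 0.31 (SE 0.28), it lay between the quartiles (0.28 to 0.93), near the lower. With errors of this size its place within the class is not settled. The CPE was searched for after the levels were known, and whether it bears on the level of Zbed3 was not tested. Nor was the part of the poly(A) tail in these values.

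Of 7 other genes tied to the complex or to the cytoplasmic lattices, 7 were called lower from GV to MII with DMSO (88.3% of all tested entries were), with changes of -4.34 for Nlrp2, -4.12 for Nlrp14, -3.11 for Cfl1 (the actin-severing protein cofilin), -2.13 for Nlrp4f, -2.06 for Uhrf1, -1.98 for Dnmt1 (the maintenance DNA methyltransferase) and -1.23 for Ube2d3. With BYBX 5 of the 7 were called higher than with DMSO (65.2% of all entries were), at 2.62 for Nlrp14, 2.33 for Nlrp2, 2.27 for Cfl1, 1.33 for Dnmt1 and 0.95 for Uhrf1, while Nlrp4f was at 0.55 (adjusted p = 0.16) and Ube2d3 at 0.36 (adjusted p = 0.18). Against GV, 6 of the 7 were called lower with BYBX (69.2% of all entries were), and Dnmt1 was at -0.65 (adjusted p = 0.096). The medians of this list were -2.13, 1.33 and -1.11, beside -1.83, 0.84 and -0.99 over all tested entries.

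Paralogues of the 6 genes were mostly low. Of 16, 8 passed the filter on low levels (a mean of the 3 group means of at least 1 FPKM), and of those 8, the first comparison called 7 lower, the second called 5 higher and the third called 5 lower, where 88.3%, 65.2% and 69.2% of all tested entries were so called. These counts are near those shares. Both rest on the filter, which a low gene can pass through the groups where it is high, and this favours such calls. With no filter on level 12025 of 18497 entries were called lower in the first comparison. In the second 5782 were called higher, and in the third 8336 were called lower. Dppa5a, a small KH-type gene related to Ooep and Khdc3, changed by -5.51, 3.88 and -1.63 in these comparisons. Zbed5 changed by -4.55, 3.11 and -1.44. Khdc1b changed by -1.24 and 0.62 and was not called against GV (-0.62, adjusted p = 0.051). Khdc1a was not called in any of the 3 (-1.05, 0.80 and -0.25). Padi1, Padi2, Padi3 and Padi4 were all below the filter, which leaves Padi6 as the single tested member of its family.

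Of 13 other maternal-effect genes, 11 were called lower from GV to MII with DMSO, where 88.3% of all tested entries were. Npm2 (nucleoplasmin) changed by -4.26, Zfp57 by -3.72, Pabpn1l by -3.15, Zar1 by -2.37, Dnmt3a by -2.31, Kdm1b by -2.13, Eed by -1.64, Hsf1 by -1.22, Dppa3 by -1.13 and Ezh2 by -1.08. Btg4, an adaptor of the deadenylase that clears maternal mRNA, was at -0.35 (adjusted p = 0.17), and Trim28 was at -0.64 (adjusted p = 0.13). With BYBX 9 of the 13 were called higher than with DMSO (65.2% of all entries), led by Npm2 (2.90), Zfp57 (2.51), Pabpn1l (2.40) and Zar1 (1.57). Btg4 (0.08), Eed (0.37), Ezh2 (0.50) and Trim28 (0.57) were not called, and 6 of the 13 were called lower with BYBX than in GV (69.2% of all entries). The medians of this list were -1.64, 0.95 and -0.75, beside -1.83, 0.84 and -0.99 over all tested entries.

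The genes whose profile was most like that of each of the 6 were taken from 3784 entries with a mean of the 3 group means of at least 10 FPKM, by the root mean square difference of log2(FPKM + 1) over the 7 libraries after each gene was set to its GV mean. For Zbed3 they included Dcp1a, which encodes a subunit of the mRNA decapping complex (0.093). For Ooep they were Setd4 (0.19) and 1300002E11Rik (0.19), for Khdc3 Frg1 (0.21) and Sh3bgrl3 (0.25), and for Nlrp5 Arpc5 (0.28) and Tdp2 (0.29). For Tle6 they were Samd10 (0.18) and Gm5434 (0.19), and for Padi6 they included Ncaph (0.21). Some of these genes were low in MII oocytes with DMSO, where log2(FPKM + 1) understates a fall. Samd10 went from a mean of 34.8 FPKM in GV to 0.53 FPKM there, and 1300002E11Rik from 86.1 to 1.28 FPKM. A small difference therefore does not mean an equal fold change. Among the 6 genes the profile of Zbed3 was furthest from the others, from 1.54 (Padi6) to 3.32 (Ooep).

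The libraries carried the markers of oocytes. The 10 oocyte markers summed to 2.28% to 2.68% of library FPKM over the 7 libraries. This sum hides unequal changes. In MII oocytes with DMSO Oosp1 (mean 1379 FPKM) and Gdf9 (974 FPKM) were the highest, while Nobox was at 6.64 and Figla at 0.08 FPKM. There 9 of the 10 reached 1 FPKM in any library. From GV to MII with DMSO 9 of the 10 were called lower (88.3% of all tested entries were), with Oosp1 the exception (-0.01, adjusted p = 0.98). The 10 markers of granulosa cells summed to 5.02 and 11.5 FPKM in GV oocytes, 1.41 to 1.85 FPKM in MII oocytes with DMSO and 2.0 and 2.09 FPKM with BYBX. In GV oocytes 2 of the 10 reached 1 FPKM, Inha (1.94 to 5.48 FPKM) and Cyp19a1 (2.19 to 4.49 FPKM), while Ptx3 was at 0 in all 7 libraries. The part of granulosa cells in the values above was not tested. The 5 erythrocyte markers summed to at most 1.13 FPKM in any library.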

How the data were processed

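The authors trimmed reads with Trim Galore 0.6.7, aligned them to mm10 with HISAT2 2.2.1 and computed FPKM with Cufflinks 2.2.1 on UCSC gene models. They scaled the deposited FPKM values by the ERCC spike-in, and scaled batches to each other by their GV samples. The factors are not stated, and neither is a strand setting. Depth is unknown, so no counting interval is given, and the number of libraries limits the precision.

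Each of the 7 libraries has a table of the same 25912 entries, of which 4 with a missing value were left out. Groups follow the labels. The 9202 entries with a mean of the 3 group means of at least 1 FPKM were tested on log2(FPKM + 1) with limma 3.58.1 in R 4.3.3 (lmFit, eBayes with intensity trend, 3 group means, 4 residual degrees of freedom). Genes were called at a Benjamini-Hochberg adjusted p under 0.05. Ratios within a library were compared by exact permutation tests in scipy 1.17.1, adjusted over 18 tests. The limma fit was tested on simulated data for BYBX against DMSO, and the permutation test and the motif patterns on made-up cases. In the simulation the fit recovered 85% of 4-fold and 40% of 2-fold changes, with 4 false calls. A gene that was not called may therefore still have changed by 2-fold. Plots were drawn with matplotlib 3.10.9.

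The 6 genes and the lists of related genes were chosen with earlier results of these data known. The genes named are the 6, all of the first list, those of the other lists with at least 10 FPKM in a group mean, and the 2 nearest profiles of each of the 6, of which some are not reported here. Sequences and positions are from GENCODE vM21 on GRCm38, with RefSeq gene ends on GRCm38.p6. By symbol, 8866 of the 9202 entries (96.3%) matched a protein-coding transcript, and the longest was searched. The search for CPEs was added after the levels were seen. Alternatives were a pseudocount of 0.1, a filter at 5 FPKM or none, the same total FPKM, median centring, only the 2 groups compared, a replicate block, no intensity trend, other definitions of a motif and the omission of each library in turn.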

Additional observations from a re-analysis of the deposited data

How the results depend on the processing

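On the deposited scale, other pseudocounts, filters, trends and fits of only the 2 groups compared kept the direction of every change of the 6 genes, and leaving out each library did so except that Zbed3 in BYBX against GV ran from -0.69 to 0.26, the latter without the first GV library. The number of genes called lower in BYBX against GV, 5, was 2 with no filter on level, 0 after scaling to the same total and 0 after median centring, and 2 to 4 when each library was left out in turn. The scale between libraries reversed single values. At the same total FPKM Zbed3 was at 1.36, -0.58 and 0.78 in MII with DMSO against GV, BYBX against DMSO and BYBX against GV, and Nlrp5 in the last was at 0.026. After median centring Zbed3 was at 1.78, -0.97 and 0.81, and in BYBX against GV Nlrp5 was at 0.063 and Padi6 at 0.025. Genes called higher in MII with DMSO against GV then numbered 1 under either scale, and those called lower in BYBX against DMSO numbered 1 after median centring. Of the recomputed changes of the 6 genes, 215 kept direction and call, 19 lost the call, 2 gained it and 10 reversed.

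The ratio of Padi6 to the mean of the 6 genes in BYBX against DMSO ranged from -1.22 to -0.71 when each library was left out, and that of Ooep from 0.72, without the first BYBX library, to 1.55. Set against the other 5 genes alone, an alternative chosen after seeing the data, the Zbed3 ratio moved by 3.84 from GV to MII with DMSO and by -2.86 from DMSO to BYBX. Motif counts were 6 with runs of 2 G and 2 with spacers of up to 12 bases, in place of 1.

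The replicate numbers in the labels are not stated to mark a shared animal, day or batch. Deviations of same-numbered libraries correlated at 0.487 and 0.282 between GV and MII with DMSO, at -0.601 and -0.348 between the MII groups and at -0.330 between GV and BYBX. With the replicate block 5 genes were still called in each comparison, with 7777 entries lower in MII with DMSO against GV, 5266 higher in BYBX against DMSO and 5962 lower in BYBX against GV. With the numbers crossed, chosen after seeing the data, the counts were 8193, 6224 and 6688. Without stated depths, low levels cannot be given a counting limit.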
